A study of Homo sapiens with 11 samples.

Results

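The mRNAs that encode the splicing factors and RNA helicases of 5 large gene families were examined for crosslinking of ZFP36L2, a zinc finger protein of the TIS11 family that binds AU-rich sequence in 3' UTRs and promotes the decay of bound mRNAs. Members were all genes of the peak tables whose symbol starts with RBM, SRSF, HNRNP, DDX or DHX and stands alone in the gene column, without HNRNPD. This gave 64 of 6554 genes, with 500 of the 65642 peaks that carry a single gene name. They were 21 RBM, 16 DDX, 10 HNRNP, 9 DHX and 8 SRSF genes. All 64 names matched a RefSeq symbol. One name, RBM15-AS1, is a long noncoding RNA and another, RBM14-RBM4, is a readthrough transcript that shares sequence with RBM4 and RBM14.

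Binding was mapped by eCLIP, in which ultraviolet light links proteins to RNA, the protein is immunoprecipitated, and the attached RNA is read out by sequencing. Cells of MOLM13 and of THP1, a pair of established human leukaemia lines of the monocytic type, were crosslinked at 254 nm with 400 mJ/cm2, and no drug, genotype or time point distinguishes the groups. Each line had 2 ZFP36L2 immunoprecipitates and 2 control immunoprecipitates with IgG, while MOLM13 had 2 inputs and THP1 had 1, an input being 2% of the lysate set aside before immunoprecipitation. Since the labels do not tie duplicates to separate cultures, their spread may be technical.

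SR proteins (SRSF) bind exonic enhancers and recruit the splicing machinery, whereas hnRNP proteins coat nascent transcripts and often repress exons. RBM proteins are a mixed group defined by an RNA recognition motif, and DDX and DHX proteins are ATP-dependent helicases that remodel RNA and RNA-protein complexes in splicing, ribosome assembly, translation and decay. Several genes of these families, the SR genes above all, hold conserved alternative exons whose inclusion routes the mRNA to nonsense-mediated decay, and control their own mRNA through them.

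The authors' tables held peaks whose log2 fold over input and −log10 p both reached 3 or more, which is what "enriched" means here. Folds and p-values of single peaks are the authors' values throughout. A site is a set of touching or overlapping peaks of 1 gene, merged over the 4 immunoprecipitates. The tables of all genes held 14432 and 14425 peaks in MOLM13 versus 19325 and 18901 in THP1, and the sources used here do not give the read depth. Of the marker lists used to check the lines, 10 of 15 myeloid genes had clusters in both MOLM13 replicates and 11 in THP1, against 1 and 0 of 10 lymphoid, 1 and 1 of 8 erythroid, and 1 and 0 of 5 epithelial genes. No RNA level was measured, so binding and abundance of an mRNA cannot be told apart in these values.

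The members had 96 and 111 peaks in MOLM13 replicates 1 and 2, and 153 and 140 peaks in THP1. These merged into 167 sites, of which 41 lay in 3' UTRs, 112 in introns and 14 in other regions. Of the 64 genes, 34 had a 3' UTR site and 38 had an intron site, with 12 in both sets. Of the 6490 other genes, 2853 had a 3' UTR site and 4211 had an intron site. Peaks were present in all 4 immunoprecipitates for 38 genes, in 3 for 5 genes, in 2 for 10 genes and in 1 for 11 genes. Among the 6490 other genes, 3632 had peaks in all 4. A single site was found in 30 members, and the median was 2 sites for members and for all genes.

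The families differed in where their sites lay. The SRSF genes had 9 of 16 sites in 3' UTRs and the HNRNP genes 7 of 20. In the DDX genes 13 of 39 sites were in 3' UTRs. The RBM genes had 9 of 67 and the DHX genes 3 of 25, and most sites of both families were intronic, 55 (82.1%) and 19 (76%) of them. Most sites were intronic in general, with 67.1% of the sites of all members and 66.0% of those of other genes. In 3' UTRs the shares were 24.6% for all members and 21.0% for other genes. These shares describe the sites and were not tested between families, because a few genes hold many sites each.

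**Figure D1:**
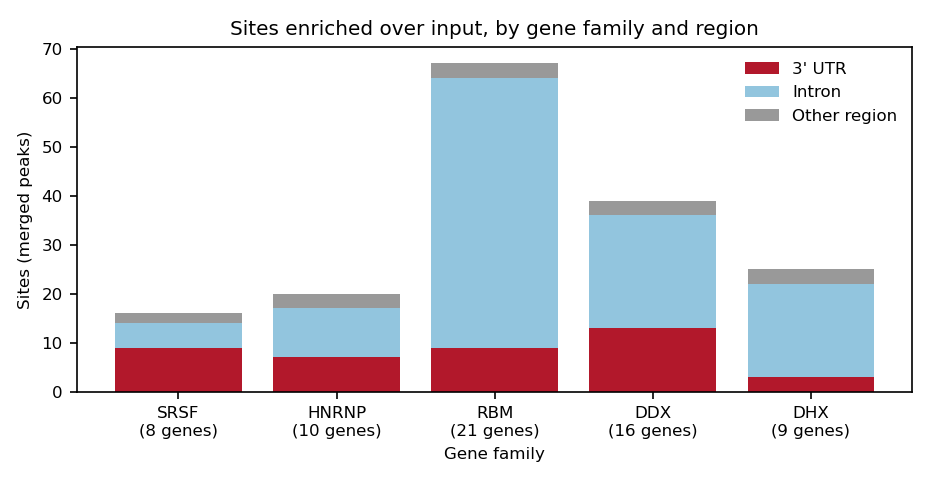
Number of sites (vertical axis) in each gene family (horizontal axis), stacked by region as annotated in the authors' tables. The RBM bar reaches 67 sites, 55 of them intronic, while 9 of the 16 SRSF sites are in 3' UTRs.

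A gene counted as a target in MOLM13 or THP1 if both replicates held an enriched peak with its name. Among protein-coding genes with clusters in each replicate, 38.5% of all genes were targets in MOLM13, and of the family's genes 43 of 116 (37.1%) were. In THP1 the share was 41.8% of all genes and 45 of 112 family genes (40.2%). For targets of both lines it was 36.4% of all genes and 38 of 112 family genes (33.9%). The shares were near the background in each line. The family's genes had a median of 12.75 clusters per replicate in MOLM13 against 8 for other genes, and 11.5 against 7 in THP1.

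With 3' UTR peaks alone, 14% of all genes were targets in MOLM13, 14% in THP1 and 10.9% in both lines. The family had 14 of 116 such genes (12.1%) in MOLM13, 14 of 112 (12.5%) in THP1 and 9 of 112 (8.04%) in both lines. When each replicate also had to pass the same thresholds over IgG, the member targets went from 44 to 13 in MOLM13, from 45 to 25 in THP1 and from 38 to 8 in both lines. Of the targets among all genes, 41.8%, 62.6% and 38.3% remained under the same rule, against 29.5%, 55.6% and 21.1% of the members' targets. The 44 MOLM13 targets include the noncoding RBM15-AS1.

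Not every transcript of the families that was recovered was enriched. Of the clusters of all genes, 10.3% and 7.89% passed the input thresholds in MOLM13, while 12.6% and 13.1% did in THP1. RefSeq lists 144 genes with such names, of which 112 had clusters in all 4 immunoprecipitates. Of these, 43 had no enriched peak under any name, and the matching share of all genes was not computed. RBM33 had 155 clusters over the 4 libraries and no enriched peak, HNRNPM had 110, and DDX17, the close relative of DDX5, had 103. SRSF1 and SRSF4, classical members of the SR family, had 81 clusters each and no enriched peak over input. These 5 genes were picked as those with most clusters, and their clusters show that the RNA was recovered in the immunoprecipitates without passing the input threshold. Over IgG, DDX17 and SRSF1 had 2 clusters each past the thresholds, and RBM33, HNRNPM and SRSF4 had 0. Of the 43 genes, 5 had clusters past IgG, which were 16 of the 1720 clusters of the 43. No share over all genes was computed for these counts either, so they describe the families only. A further 5 genes (RBM27, RBM14, DDX19A, DDX19B and RBM12) had peaks only under joined names of overlapping genes, and were not counted as members, and RBM27-POU4F3, a readthrough that shares RNA with RBM27, was counted in neither group.

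In 3' UTRs, 8 sites were enriched over input in all 4 immunoprecipitates, in DDX3X, RBM43, RBM18, SRSF8, HNRNPC, SRSF11, RBM47 and RBM48. The 41 sites in 3' UTRs ended between 32 and 20435 bases before the RefSeq 3' end of their gene (median 1709), which is the outermost end of all its transcripts. DDX3X, a helicase of translation initiation, had its site at chrX:41348907-41349043 (hg38, plus strand). The log2 folds relative to input were 5.02 and 6.09 in MOLM13 versus 4.86 and 4.46 in THP1. Over IgG they were 5.91 and 5.48 in MOLM13 versus 5.42 and 5.04 in THP1. DDX3X had the highest folds over IgG of the 8 sites in every library, and it passed the IgG thresholds in all of them.

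HNRNPC, a nuclear protein that binds uridine tracts and hides cryptic exons, carried a site at chr14:21210051-21210167 (minus strand), 904 bases before the RefSeq 3' end of the gene. Its log2 folds relative to input were 3.36 and 4.62 in MOLM13 versus 5.57 and 4.21 in THP1. Over IgG they were 3.88 and 3.59 in MOLM13 versus 3.32 and 4.79 in THP1. DDX3X and HNRNPC were the 2 members whose 3' UTR site passed both controls in each of the 4 libraries, and for HNRNPC the lines overlapped on both scales.

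SRSF8 had a site at chr11:95069826-95069952 (plus strand) with log2 folds relative to input of 3.42 and 5.15 in MOLM13 versus 4.67 and 6.24 in THP1. Over IgG the folds were 4.02 and 1.79 in MOLM13 versus 4.42 and 3.23 in THP1, so MOLM13 replicate 2 was the library below the threshold. SRSF11, another SR-related protein, was enriched at chr1:70251505-70251615 (plus strand), by 3.27 and 3.24 in MOLM13 versus 4.58 and 4.08 in THP1 on the log2 scale. It passed over IgG in MOLM13 replicate 1 (4.87) and THP1 replicate 2 (3.08), with 2.70 and 2.92 in the other libraries. Over input both THP1 values for SRSF11 lay above both MOLM13 values, a separation that 2 against 2 samples cannot carry past the 0.05 threshold (smallest possible exact permutation p = 0.33).

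RBM48, a component of the minor spliceosome, had log2 folds relative to input of 5.64 and 4.51 in MOLM13 versus 3.17 and 4.99 in THP1 at chr7:92536949-92537065 (plus strand). Over IgG they were 4.65 and 3.16 in MOLM13 versus 3.51 and 3.99 in THP1, and the site passed in 3 libraries. RBM18, at chr9:122240011-122240129 (minus strand), had 4.10, 3.98, 3.63 and 3.84 over input, and it passed IgG in 2 libraries. RBM43, at chr2:151248779-151248854 (minus strand), varied least of the 8 sites over input, with 4.33, 3.97, 4.17 and 4.02. Over IgG, however, RBM43 had 2.34, 2.61, 2.93 and 3.02 and passed in none of the 4.

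The 3' UTR of RBM8A, whose product Y14 is a core protein of the exon junction complex, had an enriched peak in every library but not at a single place. One site, at chr1:145925731-145925815 (minus strand), had log2 folds relative to input of 5.54 and 3.52 in MOLM13 and 3.77 in THP1 replicate 2. The THP1 replicate 1 peak lay at chr1:145925398-145925431 with 3.73 over input and 0.49 over IgG. The first site passed the IgG thresholds in MOLM13 replicate 1 (3.97) and THP1 replicate 2 (4.35).

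**Figure D2:**
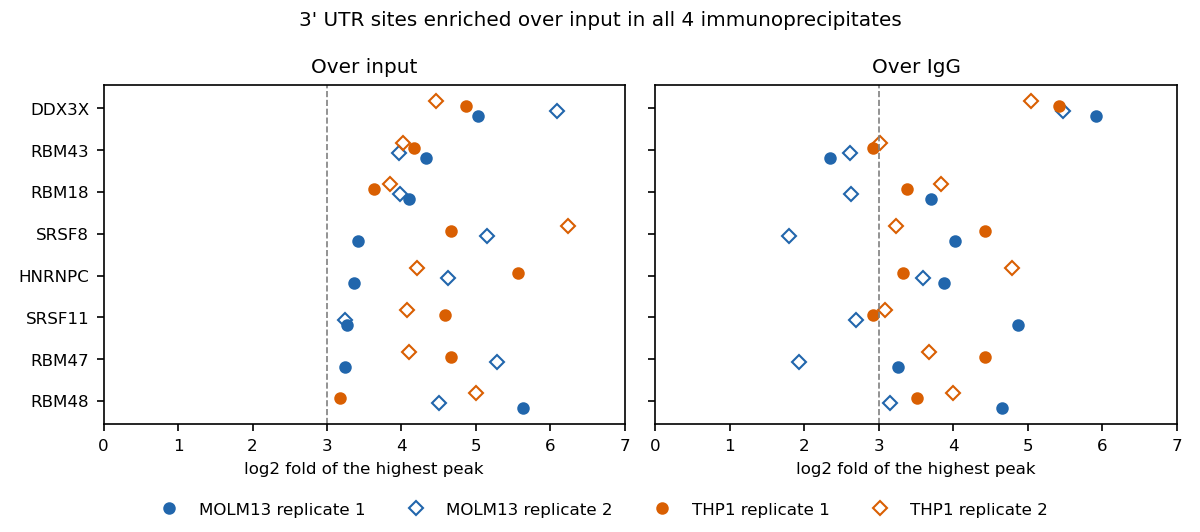
Log2 fold of the highest peak at each of the 8 sites in 3' UTRs that were enriched over input in all 4 immunoprecipitates, over input (left) and over IgG (right), 1 point per immunoprecipitate, with the threshold of 3 as a dashed line. DDX3X lies between 5.04 and 5.91 over IgG, and the open blue points of MOLM13 replicate 2 lie below the threshold for 5 genes other than DDX3X, HNRNPC and RBM48.

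Most of the highest folds belonged to introns. RBM41 had the highest member peak of MOLM13 replicate 1 and of THP1 replicate 2. Its intron site at chrX:107076252-107076336 (minus strand) had log2 folds relative to input of 7.74 and 6.54 in MOLM13 versus 7.48 and 8.45 in THP1. Over IgG it had 4.17, 4.19, 4.43 and 5.86 and passed in all 4. DHX35, a helicase found in spliceosomes, was close to it, with an intron site at chr20:38997071-38997139 (plus strand) of 6.19 and 6.47 in MOLM13 versus 8.06 and 8.38 in THP1. Over IgG that site had 4.46, 3.79, 3.82 and 5.38 and also passed in all 4. The DHX35 values over input were higher in both THP1 libraries than in either MOLM13 library, while those over IgG overlapped.

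DDX55, a helicase of large ribosomal subunit assembly, had an intron site at chr12:123608933-123609031 (plus strand) with 4.16 and 5.40 over input in MOLM13 versus 3.87 and 5.84 in THP1. It passed over IgG in all 4 libraries, at 3.76, 4.04, 4.95 and 4.84. A second DDX55 intron site, at chr12:123604992-123605167, had more over input (5.80, 6.04, 5.29 and 5.75) and less over IgG (2.82, 2.10, 1.88 and 2.57), and passed in none. Over input this second site was the higher one in 3 of 4 libraries, whereas over IgG it was the lower one in all 4.

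DHX15, the helicase that takes spliceosomes apart after splicing, had an intron site at chr4:24569174-24569269 (minus strand) with 5.09 and 5.44 over input in MOLM13 versus 6.0 and 6.50 in THP1. Its values over IgG were 3.52 and 4.09 in MOLM13 versus 5.75 and 3.91 in THP1, and it passed in all 4. DHX9 (RNA helicase A) had a peak past both controls in every library as well, but not at the same site throughout. Its intron site at chr1:182886191-182886272 (plus strand) had 4.83 and 5.13 over input in MOLM13 versus 7.68 and 7.72 in THP1. Over IgG it had 3.84 and 1.61 in MOLM13 versus 4.12 and 5.72 in THP1.

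DDX21, a nucleolar helicase, and DHX34, which acts in nonsense-mediated decay, were each among the 2 targets of both lines with the highest folds over input in their family. The DDX21 intron site at chr10:68966406-68966505 (plus strand) had 6.25 and 5.94 in MOLM13 versus 5.07 and 5.89 in THP1, and it passed IgG in all libraries except MOLM13 replicate 2. DHX34 had 6 sites, all intronic, and one of them had 4.88 and 5.60 in MOLM13 versus 6.18 and 7.13 in THP1. DHX34 also stood higher over input in both THP1 libraries than in either MOLM13 library at this site (chr19:47364585-47364676, plus strand). Over IgG the same peaks had 2.16 and 1.79 in MOLM13 versus 2.76 and 3.81 in THP1. The site passed IgG in THP1 replicate 2 and, by another peak, in MOLM13 replicate 2.

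Introns of other members were enriched in all 4 libraries as well. RBM25, a splicing factor associated with the U1 particle, had an intron site at chr14:73075161-73075233 (plus strand) with 6.69 and 4.55 in MOLM13 versus 7.35 and 7.37 in THP1. Over IgG it had 3.39, 1.46, 3.11 and 5.36, and MOLM13 replicate 2 was again the library that did not pass. DHX33 had 5.74 and 5.36 in MOLM13 versus 6.66 and 6.66 in THP1 at chr17:5452656-5452787 (minus strand), and passed IgG in 3 libraries. DDX60L, a relative of the interferon-induced helicase DDX60, had 1 peak in each MOLM13 library and 5 in each THP1 library. Its intron site at chr4:168459249-168459354 (minus strand) had 6.18 and 4.86 in MOLM13 versus 7.75 and 6.89 in THP1, and passed IgG in both THP1 libraries only. At these 3 sites the values over input were higher in both THP1 libraries than in either MOLM13 library. In all, 40 of the 112 intron sites (35.7%) were enriched in all 4 libraries, against 37.9% of the intron sites of other genes, and 8 of the 41 3' UTR sites (19.5%), against 28.4%.

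HNRNPUL1 had a single site, in an intron at chr19:41282116-41282252 (plus strand), with 5.38 and 5.96 over input in MOLM13 versus 5.03 and 3.77 in THP1. Over IgG it had 5.40, 4.60, 2.20 and 3.77 and passed in 3 libraries. SRSF3, which regulates its own splicing through an alternative exon, had an intron site at chr6:36595701-36595787 (plus strand) with 3.64 and 3.46 in MOLM13 versus 4.38 and 3.96 in THP1. It did not pass IgG in any library. SRSF9 had 6 sites, none of them in all 4 libraries, and 7 of its 12 peaks were in THP1 replicate 2.

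Over both controls, 7 sites passed in all 4 immunoprecipitates, in DDX3X, DDX55, DHX15, DHX35, HNRNPC, RBM41 and RBM47, which was 4.19% of member sites against 7.66% of the sites of all genes. At the other end 92 of the 167 sites (55.1%) passed IgG in none, against 50% of all sites. At the level of genes, 20 of 64 members (31.25%) had no peak that passed IgG anywhere, against 29.6% of all genes. The share of members without such a peak was thus near the background. Among these 20 DDX10, a ribosome assembly helicase, had most peaks (7), followed by DDX59 (6) and DDX54 (5). The best DDX10 site, in an intron at chr11:108863053-108863198 (plus strand), had 3.01, 3.88, 3.17 and 3.47 over input, against 2.02, 1.53, 2.93 and 3.46 over IgG. The last of these folds exceeded 3 without reaching the −log10 p of 3.

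Peaks that passed IgG numbered 42 of 96 and 20 of 111 in MOLM13 and 58 of 153 and 70 of 140 in THP1. As shares of member peaks these were 43.75%, 18.0%, 37.9% and 50%, against 44.9%, 28.2%, 43.2% and 59.1% of all peaks with 1 gene name. The members' share was below that of other genes in 4 of 4 libraries, by 6.43 percentage points on average (SD 4.13, n = 4 immunoprecipitates, exact two-sided sign-flip permutation p = 0.13). That p is the smallest that 4 libraries allow, so no such comparison here could pass 0.05. The difference was −1.09 points in MOLM13 replicate 1. Under 3 alternatives the members were lower in 3 of 4 libraries. These were touching peaks merged (mean −5.10 points), no antisense or readthrough names (−5.85), and an IgG log2 fold of at least 1 (−3.43). MOLM13 replicate 2 had the lowest share for members and for other genes, and over all its clusters the log2 fold over IgG had a median of −0.60, against 0.28, 0.0019 and 0.38 in the other libraries.

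Within the members, 3' UTR and intron peaks ranked in opposite order by the 2 controls. In 3' UTRs 56.5% and 27.6% of MOLM13 peaks and 48.0% and 60.9% of THP1 peaks passed IgG, against 41.8%, 12.3%, 35.8% and 51.9% in introns. The 3' UTR share was higher in 4 of 4 libraries, by 12.8 points (SD 2.89, n = 4, exact sign-flip permutation p = 0.13). The median log2 fold over input was lower in 3' UTRs in 4 of 4 libraries (mean difference −0.68), and over IgG it was higher in 4 of 4 (0.40). Other genes had differences of the same sign, at 16.7 points, −0.56 and 0.42. With a log2 fold over input of at least 4, the difference in the members' share was 4.89 points (exact permutation p = 0.5).

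**Figure D3:**
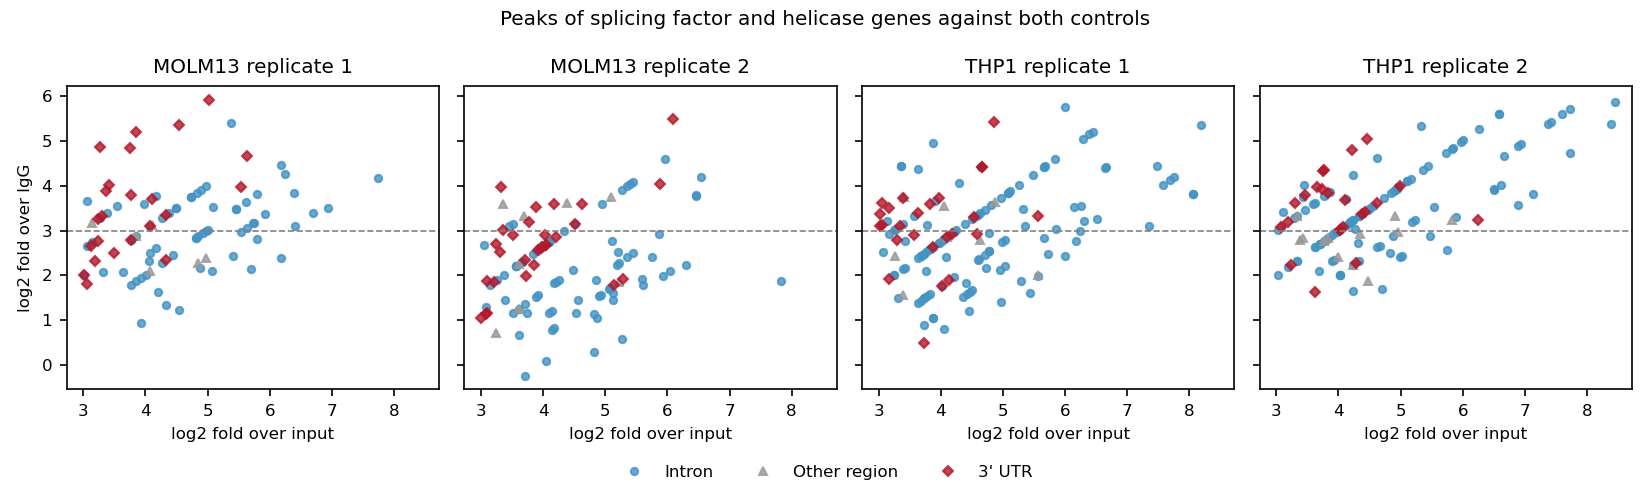
Each point is a member peak, with its log2 fold over input on the horizontal axis and over IgG on the vertical axis, in 1 panel per immunoprecipitate, coloured by region, and with the IgG fold threshold of 3 as a dashed line. Points fall on parallel lines, and in MOLM13 replicate 2 most points (91 of 111 by the thresholds) fail the IgG control.

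The parallel lines in the plot of the 2 folds mark how few values the difference between them took. In THP1 replicate 2 the fold over input exceeded that over IgG by 1 (within 0.02 on the log2 scale) at 59 of 140 member peaks. Together with the values 1 below, 1 above and 2 above, this difference accounted for 102 peaks (72.9%). In THP1 replicate 1 the most frequent difference was 1.24, at 52 of 153 peaks, and the same 4 steps held 61.4%. In MOLM13 the most frequent differences were 0.99 and 1.35, and the steps held 56.25% and 55.9%. Other genes had shares of 51.6%, 51.8%, 62.8% and 68.8%. Whole steps on the log2 scale are doublings, so for most member peaks the ratio between the controls took 1 of 4 values. The read counts behind these folds were not analysed here.

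Of member peaks, 24.0% and 26.1% in MOLM13 and 16.3% and 16.4% in THP1 were in 3' UTRs. Other genes had 20.5%, 23.1%, 16.4% and 17.0%. The members' share was higher in both MOLM13 replicates and lower in both THP1 replicates, with a mean difference of 1.46 points (SD 2.07, exact sign-flip permutation p = 0.5). At a log2 fold of at least 4 the mean difference turned to −1.45 points, and at a −log10 p of at least 10 to −0.44. Without RBM6, whose 13 sites included none in a 3' UTR, it was 3.35. No direction can be given to this difference.

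Introns held 69.8%, 65.8%, 78.4% and 74.3% of member peaks, against 66.4%, 63.5%, 71.6% and 70.5% for other genes. The difference was positive in 4 of 4 libraries, with a mean of 4.06 points (SD 1.95, exact sign-flip permutation p = 0.13). It was 1.77 points without RBM6, 2.64 without RBM47 and 2.83 without RBM39. Introns labelled distal in the authors' tables held 57.3%, 51.4%, 68.0% and 60.7% of member peaks, against 59.5%, 56.8%, 64.7% and 63.8%, so members were higher in 1 of 4, THP1 replicate 1 (mean difference −1.87 points, SD 3.68, exact sign-flip permutation p = 0.5). Introns labelled proximal held 12.5%, 14.4%, 10.5% and 13.6% of member peaks, against 6.92%, 6.68%, 6.88% and 6.73%. The mean difference in proximal introns was 5.93 points (SD 1.80, higher in 4 of 4, exact sign-flip permutation p = 0.13). This comparison was not among the planned ones.

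A single gene weighed on the proximal intron share. RBM39, a splicing factor that aryl sulfonamide drugs send to degradation, held 18 of the 63 proximal intron peaks, which fell in 13 genes. The mean difference without RBM39 was 2.72 points, still positive in the comparison of the 4 libraries (exact sign-flip permutation p = 0.13). In RBM39 a pair of neighbouring sites was enriched in all 4 libraries. The site at chr20:35728995-35729126 (minus strand) had 6.41 and 5.11 over input in MOLM13 versus 5.32 and 4.89 in THP1, and passed IgG in all libraries except MOLM13 replicate 2. The site beside it, at chr20:35728846-35728991, had 4.01, 3.74, 4.73 and 4.82 over input and passed IgG in none.

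Coding sequence, 5' UTRs and splice sites held few peaks of members and of other genes. Coding sequence held 0, 4, 2 and 6 member peaks, and splice sites held 0, 0, 2 and 1. For other genes the means in MOLM13 and THP1 were 3.90% and 3.14% in coding sequence, and 1.62% and 1.20% at splice sites. The members differed from other genes by −1.22 points in coding sequence (exact sign-flip permutation p = 0.375). The differences were −0.91 points at splice sites and 0.076 in 5' UTRs (exact sign-flip permutation p = 0.25 and 0.75). HNRNPH1 carried all the splice site sites of the members, 1 at a 3' and 1 at a 5' splice site. The 3' splice site was enriched in THP1 replicate 1 only, with 3.26 over input and 2.43 over IgG. The 5' splice site was enriched in both THP1 libraries, and the MOLM13 clusters there had 2.40 and 2.09 over IgG. DDX6, a helicase of mRNA decay and storage, had the single 5' UTR site of the members, at chr11:118786288-118786374 (minus strand). Its folds over input were 4.97 and 3.69 in MOLM13, with 3.33 in THP1 replicate 2, and it did not pass IgG.

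**Figure D4:**
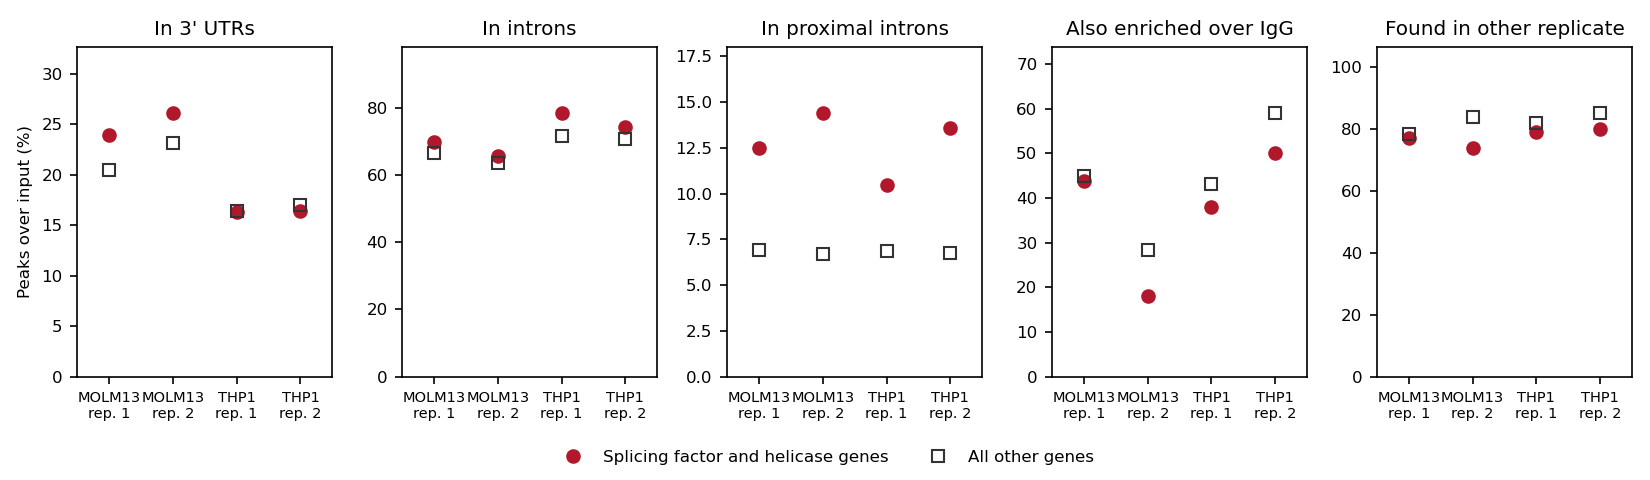
Share of peaks over input (vertical axis, %) in each of the 4 immunoprecipitates (horizontal axis) for the 64 member genes (circles) and all other genes (squares), for 3 kinds of region, for peaks that also passed IgG and for peaks found in the other replicate. Members lie above other genes in proximal introns in all 4 libraries (12.5%, 14.4%, 10.5% and 13.6%) and below them in both right-hand panels.

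Sites were not spread evenly over genes. RBM47, an RNA-binding protein best known as a cofactor of cytidine editing, had 20 sites, and 28 of the 6554 genes had more. RBM6, a splicing regulator, had 13 and HNRNPR had 8, while the median was 2 for members and for all genes. RBM47 held 4 and 6 peaks in MOLM13 versus 25 and 20 in THP1, which was 4.17% and 5.41% of member peaks in MOLM13 and 16.3% and 14.3% in THP1. The lines did not overlap in these counts. Of them, 3, 1, 9 and 10 passed IgG.

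In RBM47, 4 sites were enriched in all 4 libraries, and 3 of them are given here. The intron site at chr4:40581321-40581445 (minus strand) had 6.95 and 7.82 over input in MOLM13 versus 6.30 and 7.72 in THP1. A second, at chr4:40545606-40545730, had 4.97 and 4.95 in MOLM13 versus 6.45 and 6.59 in THP1 and passed IgG in all 4 libraries, with 3.98, 3.59, 5.20 and 5.59. The 3' UTR site, at chr4:40423983-40424134, had 3.24 and 5.28 in MOLM13 versus 4.67 and 4.10 in THP1, and passed IgG in 3. The values over input of the first intron site and of the 3' UTR site overlapped between the lines, and those of the second intron site were higher in both THP1 libraries.

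Another 6 RBM47 sites, all intronic, were enriched in both THP1 libraries and in neither MOLM13 library. Each of them had a cluster in both MOLM13 replicates. The highest log2 folds over IgG there ran from −1.30 to 3.22 in replicate 1 and from −0.69 to 2.04 in replicate 2. The RNA was thus recovered at these places in MOLM13 below the input threshold. At chr4:40529595-40529667 the fold over IgG was negative in both MOLM13 replicates (−1.30 and −0.69), so nothing there exceeded IgG. An example is chr4:40479501-40479606, with 4.71 and 4.33 over input in THP1 and 2.40 and 0.72 over IgG in the MOLM13 clusters.

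RBM6 had 9 and 9 peaks in MOLM13 versus 13 and 10 in THP1, and 5 of its sites were enriched in all 4 libraries. The highest lay in an intron at chr3:49991940-49992041 (plus strand), with 5.79 and 6.29 over input in MOLM13 versus 8.18 and 7.41 in THP1. Over IgG it had 3.81, 2.24, 5.35 and 5.41. Both THP1 values were above both MOLM13 values over input, and MOLM13 replicate 2 was the library that did not pass IgG. HNRNPR had a single site in all 4, at chr1:23327630-23327759 (minus strand), with 3.54 and 4.82 in MOLM13 versus 4.71 and 4.96 in THP1.

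**Figure D5:**
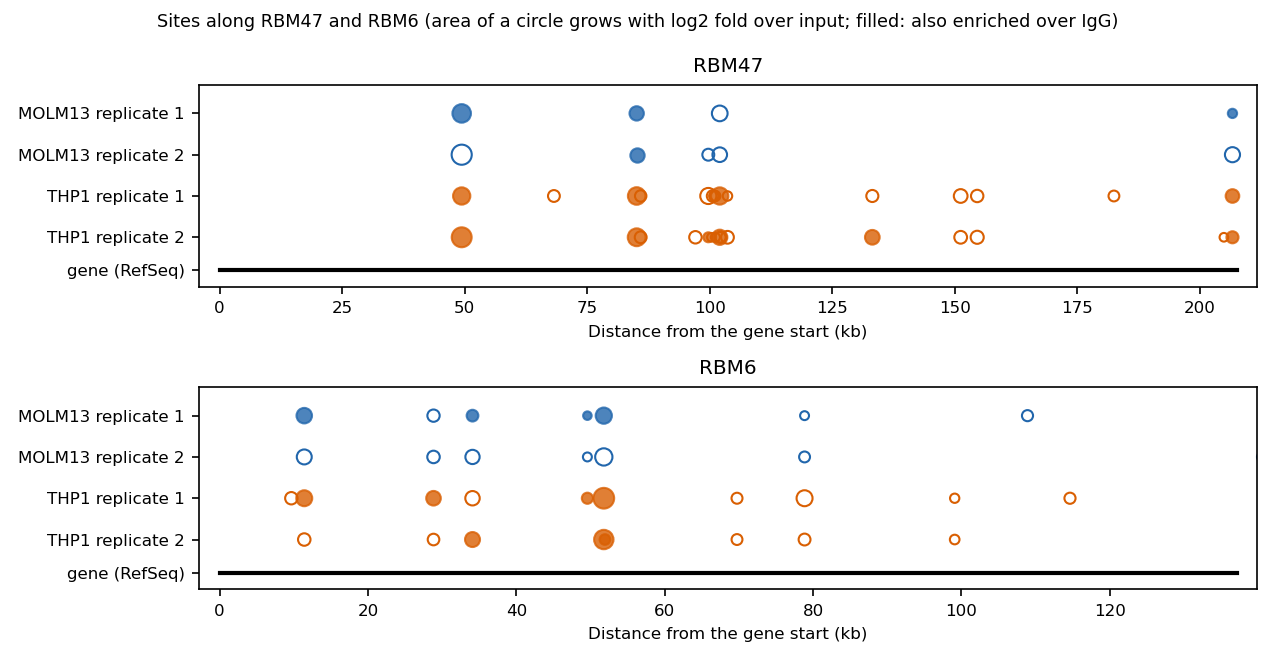
Sites along RBM47 and RBM6, placed by their distance from the RefSeq gene start in kilobases (horizontal axis), with 1 row per immunoprecipitate; the area of a circle grows with the log2 fold over input and filled circles also passed IgG. RBM47 has 4 and 5 sites in the MOLM13 rows and 15 and 16 in the THP1 rows, while the RBM6 rows share 5 sites.

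Sites close to each other were common. Of the 167 sites, 32.9% lay within 500 bases of another site of the same gene, against 29.1% of the sites of other genes. Among intronic sites the shares were 41.1% and 30.5%, and among 3' UTR sites 19.5% and 28.1%. These are shares over sites of few genes and carry no test.

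Among member peaks, 77.1% and 73.9% in MOLM13 and 79.1% and 80% in THP1 overlapped an enriched peak of the other replicate, where all peaks gave 78.4%, 83.8%, 81.8% and 85.1%. The members were lower than other genes in 4 of 4 libraries, by 4.78 points (SD 3.80, exact sign-flip permutation p = 0.13). The overlap with the other line was 81.25%, 78.4%, 69.3% and 67.9%, where all peaks gave 83.1%, 85.5%, 69.6% and 71.6%. Where a member peak was found in both replicates, its log2 fold over input differed with an SD of 0.89 in MOLM13 (74 pairs) and 0.98 in THP1 (121 pairs), against 0.91 and 0.89 for other genes. Differences of about 1 on the log2 scale between 2 libraries are thus about 1 SD of the replicate differences, and larger ones also arose between replicates. This spread leaves out peaks that were enriched in only 1 replicate.

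Member peaks were rarely among the strongest. The top 10% of all peaks by fold over input held 3 and 4 member peaks in MOLM13 and 9 and 11 in THP1, which was 3.13%, 3.60%, 5.88% and 7.86% of member peaks. The median log2 fold over input was below that of other genes in 4 of 4 libraries (4.33 against 4.38, 4.15 against 4.31, 4.25 against 4.51 and 4.28 against 4.47). The mean difference was −0.17 (SD 0.085 over the 4 libraries, exact sign-flip permutation p = 0.13, the smallest that 4 libraries allow).

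Between the lines, 3' UTR peaks made up 25.04% ± 1.53 (SD, n = 2) of member peaks in MOLM13 and 16.4% ± 0.063 in THP1. The difference of 8.66 points had the smallest p that 2 against 2 samples allow (exact two-sided permutation p = 0.33), and other genes differed by 5.10 points in the same direction. It was 3.21 points with a log2 fold of at least 4. The share that passed IgG was 30.9% ± 18.2 in MOLM13 and 44.0% ± 8.55 in THP1, a difference within the spread of the replicates (exact permutation p = 0.667). That difference of −13.1 points was −0.20 without MOLM13 replicate 2, −25.9 without MOLM13 replicate 1 and −7.02 without THP1 replicate 2.

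Sites enriched in both THP1 libraries and neither MOLM13 library numbered 26, in 16 genes, which was 15.6% of member sites against 14.6% of the sites of other genes. Of the 26, 21 had a cluster in both MOLM13 replicates and 2 had none. The reverse pattern held for 6 sites (3.59% against 4.47%). Both shares were near those of other genes, and THP1 had more peaks in all.

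Among genes found in MOLM13 alone, SRSF2, an SR protein often mutated in myeloid neoplasms, had a 3' UTR site at chr17:76734352-76734436 (minus strand), 237 bases before the RefSeq 3' end. In MOLM13 it had 3.85 and 4.17 over input, with 5.19 and 3.59 over IgG, and passed both controls in both replicates. In THP1 the same place held clusters with log2 folds over IgG of 3.57 and 3.27, without an enriched peak over input. The folds over IgG at SRSF2 thus exceeded 3 in all 4 libraries, while those over input did so in MOLM13 only. RBM15B, an adaptor of the m6A methyltransferase, had a 3' UTR site at chr3:51395852-51395948 (plus strand) with 4.08 and 4.21 in MOLM13, and HNRNPA0, itself a binder of AU-rich mRNAs, had 3.19 and 3.72 at chr5:137752843-137752906 (minus strand). Neither passed IgG.

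The other MOLM13-only members were DDX18 and HNRNPA2B1, each with a peak in 1 library only, and DDX3Y. DDX3Y is the Y-linked copy of DDX3X, and its reads can be hard to separate from those of DDX3X. By gene, 6 members were found in MOLM13 alone and 13 in THP1 alone, which includes all 11 genes with a peak in 1 library. The share of all genes found in 1 line alone was not computed, and THP1 had more peaks in all. The counts of 6 and 13 therefore do not set the members apart from other genes. Among the 13 genes found in THP1 alone, SRSF10 had a 3' UTR site at chr1:23966985-23967121 (minus strand) with 3.03 and 3.47 over input. It passed IgG in both THP1 replicates, at 3.11 and 3.79, and the MOLM13 clusters there had 3.27 and 3.52 over IgG. The values over IgG at SRSF10 overlapped between the lines. HNRNPL, a regulator of CD45 splicing, had a coding sequence site at chr19:38844014-38844104 (minus strand) with 3.41 and 3.77. DHX36, which unwinds G-quadruplexes, had an intron site with 4.45 and 3.33 that did not pass IgG.

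DHX30, a helicase that takes part in mitochondrial ribosome assembly, carried the only member site annotated as lying near a miRNA. It was at chr3:47850074-47850191 (plus strand), ended 2 bases before the RefSeq 3' end of DHX30, and was enriched in both MOLM13 replicates, by 4.11 and 3.36 over input with 3.12 and 3.59 over IgG. The THP1 clusters there had 1.00 and 1.18 over IgG and no enrichment over input, so both MOLM13 values over IgG lay above both THP1 values. The hairpin of microRNA 1226, which sits within DHX30, ends 444 bases before the site. Its mature sequences from RefSeq (GRCh38.p14), shown to identify the miRNA behind that annotation, are given 5′ to 3′ with the seed (bases 2 to 8) in capitals.
hsa-miR-1226-5p: gUGAGGGCaugcaggccuggaugggg
hsa-miR-1226-3p: uCACCAGCccuguguucccuag
The mature sequences lie 493 and 444 bases before the site, so the crosslinked stretch holds neither of them. No member site overlapped a promoter window from 250 bases before to 50 bases after a RefSeq gene start.

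The remaining splicing and RNA processing machinery was counted in 5 lists of genes outside the families. Of the core spliceosome, 9 of 42 genes with clusters were targets in MOLM13 and 11 of 38 in THP1, below the 38.5% and 41.8% of all genes. Of the splicing kinases, which phosphorylate SR proteins, 6 of 7 and 5 of 7 were targets. Other splicing regulators had 15 of 32 and 14 of 32, other RNA helicases 11 of 17 in each line, and genes of RNA processing and nonsense-mediated decay 8 of 16 and 8 of 17. The counts differ in direction from list to list and were not tested.

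By the lowest of the 4 folds, the leading genes of these lists had their highest peaks outside 3' UTRs. UPF2, a core factor of nonsense-mediated decay, had log2 folds relative to input of 8.43 and 8.31 in MOLM13 versus 9.11 and 8.16 in THP1 in an intron. MTREX, the helicase of the nuclear exosome, had 8.01, 8.59, 8.09 and 8.26. DYRK1A, a kinase of splicing factors, had 9.03, 7.12, 8.19 and 7.59. Each of the 3 exceeded RBM41, the highest member by the lowest of its folds (6.54). MBNL1, a splicing regulator, had 7.67, 8.28, 7.24 and 7.01, and THOC2, of the mRNA export complex, had 7.25, 6.97, 7.02 and 8.34. LUC7L led the core spliceosome with 5.81, 5.72, 6.62 and 6.58.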

How the data were processed

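ZFP36L2 eCLIP was deposited for MOLM13 and THP1 as 4 tables of peaks over input and 4 lists of clusters over IgG, 1 of each per immunoprecipitate, so clusters were called per replicate. The authors deposited a −log10 p (highest value 400) and a log2 fold for each cluster, and the input tables add gene and region. Tools named in the submitters' processing notes are STAR 2.5.0c, cutadapt 1.14, edgeR and Picard 2.6.0, beside the builds hg38, hg19 and GRCh37. The files carry hg38 contigs. The sources used here do not give the peak caller, the test behind p, the scaling of the fold or the depth, nor whether both THP1 folds rest on the same input.

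Members, lists and tests were chosen with earlier results of these data known. Values over IgG were joined by identical coordinates and strand. Peaks of replicates or lines were matched by at least 1 shared base on the same strand. Shares were compared over the 4 immunoprecipitates with exact sign-flip tests and between lines with exact permutation tests, in Python 3.11.15 with numpy 2.4.6 and pandas 2.3.3, tested on simulated data. Clusters were assigned to protein-coding genes by RefSeq coordinates, on the gene's strand where the table gives one.

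Named genes were the members with a 3' UTR peak in all 4 libraries, the 2 targets of both lines per family with the highest lowest fold, up to 4 members per line found there alone, the 3 with most sites, the 3 with most peaks and none past IgG, and up to 3 targets per pathway list. Genes named for another reason (RBM39, RBM25, DHX15, DHX9, DHX30, DHX33, DDX60L, DDX6, HNRNPH1, the members found in MOLM13 alone and those without an enriched peak) were chosen after their values were seen. Alternatives were stricter thresholds, other IgG and overlap rules, merged peaks, each library left out, and RBM47, RBM39 or RBM6 left out, the last chosen after seeing the data. The proximal intron comparison and its alternatives were added to the planned ones.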

Additional observations from a re-analysis of the deposited data

Results flagged for a closer look

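The difference between members and other genes in the share of 3' UTR peaks had opposite signs in the 2 lines. It was 3.24 points in MOLM13, where both replicates were positive, and −0.319 points in THP1, where both were negative. The difference between the lines was 3.56 points (exact two-sided permutation of 2 against 2 libraries, p = 0.33, the smallest possible). The THP1 replicate 1 value was −0.072 points. The contrast of signs depended on the settings. Members were higher in 4 of 4 libraries with touching peaks merged (mean 1.69 points), without RBM39 (2.37) or without RBM6 (3.35). With a log2 fold over input of at least 4, they were higher in 1 of 4 (mean −1.45).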

How the results depend on the processing

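Over 12 results and 121 alternatives, 108 kept the sign of a difference or, for counts of targets, stayed within a fixed ratio of the main count. No limit was set on how far a difference could move while keeping its sign. The 3' UTR share of members minus other genes reversed to −1.45 points when folds had to reach 4 (log2) and to −0.44 when −log10 p had to reach 10. Member targets in MOLM13 were 26, 22, 13 and 14 with a fold of at least 4, a −log10 p of at least 10, IgG passed in each replicate and 3' UTR peaks alone. In THP1 the last 3 of these gave 24, 25 and 14, and for both lines the 4 gave 23, 17, 8 and 9. With 1 library left out at a time, the differences between members and other genes ranged from 0.79 to 2.13 points for 3' UTRs, 3.13 to 4.65 for introns, 5.33 to 6.72 for proximal introns, −8.21 to −5.16 for IgG and −5.93 to −3.05 for the other replicate. With the replicate number as a block, the line differences stayed at 8.66 points (3' UTR, exact sign-flip permutation p = 0.5) and −13.1 (IgG, p = 1), and the labels do not say that numbers pair the lines. Neither design can reach 0.05, and depth is unknown.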
